A study of Mus musculus with 8 samples.

Results

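In N2a cells, a mouse neuroblastoma line, the differential m6A peaks that ran across several exons mostly had a negative change between conditions: 434 of 533 did (81.4%), against 53.1% of all listed peaks. These peaks are the entries of the authors' list of differential N6-methyladenosine (m6A) peaks that consist of 3 or more blocks, a block being a stretch of exon and the gap between blocks an intron left out. They made up 533 of the 2114 listed peaks and lay on 522 genes; 512 listed peaks had 2 blocks and 1069 had 1. The cells had been transfected with a small interfering RNA (siRNA) against Emg1, which encodes an 18S ribosomal RNA methyltransferase, or with a control siRNA, and were collected 48 h later. Poly(A) RNA was sequenced as input and after immunoprecipitation (IP) with an m6A antibody, in 4 groups of 2 libraries: knockdown IP, control IP, knockdown input and control input. Separate cultures are not mentioned in the labels. The p-values for input RNA therefore measure only the spread between the input libraries, which may be technical. Whether the p-values of the peaks draw on any spread between libraries is unknown. The tables used here hold no value per library.

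m6A is placed on mRNA by a writer complex built around METTL3 and METTL14, mostly at adenosines in a short sequence context. It is most frequent in long internal exons and near stop codons, and it is sparse close to splice junctions, where exon junction complexes sit on spliced mRNA. The antibody pulls down RNA fragments, so a peak marks a region and not a single adenosine. It also recognises m6Am, a modified adenosine that can be the first transcribed base next to the cap.

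The list gives a log2 change between conditions for each peak without naming the numerator. Peaks are therefore called negative-change or positive-change with the sign as deposited, which cannot be read as loss or gain after knockdown. Block counts, changes and fold enrichments of IP over input are the authors' values per peak. All listed peaks had passed the authors' test of the change, and the block count chose the members, so the sign, size and enrichment below are a description with no test. Positive changes made up 46.9% of the whole list.

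Of the 431 members with a known RefSeq start, 150 began within 50 bases of a start of their gene (34.8%). A gene can have several such starts, and the nearest was used. The sequences there show what the first block covers. Below, the lower-case letters before the capitals are 20 bases upstream of the RefSeq start (mm10, GRCm38.p6 sequence), and the capitals are the first transcribed bases, all inside the peak. For Supt5, an elongation factor subunit gene, Snrpb2, a U2 small nuclear ribonucleoprotein gene, and Psmc5, a proteasome ATPase gene, the capitals are the whole first block, and the lower-case letters after them are the next 10 genomic bases. These 3, picked after their values were seen, are shown because the edge of the block can be read directly.
Supt5: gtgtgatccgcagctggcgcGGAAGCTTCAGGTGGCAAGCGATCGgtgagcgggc
Snrpb2: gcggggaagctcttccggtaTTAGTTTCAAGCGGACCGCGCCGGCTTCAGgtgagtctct
Psmc5: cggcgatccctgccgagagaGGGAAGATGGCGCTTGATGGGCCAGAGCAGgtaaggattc
In each of them the block stopped at a gt, the first letters of an intron. The printed stretches lie at chr7:28338685-28338739 on the minus strand, chr2:143063049-143063108 on the plus strand and chr11:106256165-106256224 on the plus strand. The peaks had changes of -1, -0.78 and -0.53 (log2). In all 8 members that began exactly at a start and had a first block short enough for its end to be read in the RefSeq window, the bases after the first block were GT. With blocks being stretches of exon, this describes the block edges and is not a result about m6A.

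The next sequences show the starts under members from both ends of the range of changes, the 3 most negative and the 2 most positive that began exactly at a RefSeq start, with the first 30 transcribed bases in capitals.
2210015D19Rik: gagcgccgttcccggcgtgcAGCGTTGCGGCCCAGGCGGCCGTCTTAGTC
Ybx1: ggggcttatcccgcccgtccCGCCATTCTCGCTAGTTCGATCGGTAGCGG
Hnrnpm: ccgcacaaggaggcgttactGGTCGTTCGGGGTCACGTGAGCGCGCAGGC
Tefm: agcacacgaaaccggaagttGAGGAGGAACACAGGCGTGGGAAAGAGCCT
Gskip: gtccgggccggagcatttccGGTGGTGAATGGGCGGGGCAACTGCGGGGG
The printed stretches are chr11:5762130-5762179 (plus strand), chr4:119294484-119294533 (minus), chr17:33685429-33685478 (minus), chr11:80142124-80142173 (minus) and chr12:105685332-105685381 (plus). The changes of these peaks were -3.45, -1.85 and -1.78 for the first 3, and 1.05 and 1.14 for Tefm and Gskip.

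The first transcribed base was A in 23 of the 102 members that began exactly at a RefSeq start (22.5%), G in 51, C in 15 and T in 13. Over all 32817 RefSeq start windows the base was A in 34.4% and G in 35.6%. Forms of the m6A consensus, namely GGACT, its variants with another last base GGACA or else GGACC, and its variants with another start GAACT or else AGACT, were searched in the first 50 transcribed bases on the transcribed strand only. At least 1 of them was found in 24 of the 102 members (23.5%) and in 23.5% of all start windows. GGACT alone was found in 7 of the 102 and in 5.76% of all windows. A match is a description of these letters and not a methylated site.

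The members had between 3 and 12 blocks: 264 had 3, 152 had 4, 62 had 5 and 55 had 6 or more. Their joined blocks, introns left out, had a median length of 509 bases (quartiles 328 and 869, range 91 to 4103). With introns the median genomic span was 6525 bases and the largest 252725. The first blocks in transcript order had a median of 88 bases, the inner blocks 106 and the last blocks 80. Edge blocks could be very short: 58 members had a first or last block under 10 bases. Of the 1568 gaps between blocks, 6 were under 50 bases, too short for a usual intron, and the median gap was 1476 bases.

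The member with the most blocks was on Eif5b, whose product joins the ribosomal subunits at initiation (chr1:37998100-38037578), with 12 blocks, 2160 joined bases, an enrichment of 20.2 and a change of -0.55. Eif3a, the gene of a large subunit of initiation factor eIF3 (chr19:60761774-60772870), had 11 blocks, an enrichment of 21.4 and a change of -0.32. Both held a long inner block, of 670 and 662 bases. Cdk11b, a cyclin-dependent kinase gene, also had 11 blocks, but none above 165 bases, with an enrichment of 5.46 and a change of -0.52. Members of 10 blocks were found on Mdn1, an ATPase gene of large ribosomal subunit maturation, at -0.74, on Abcf1, an ATP-binding translation factor gene, at -0.80, on Top1, the DNA topoisomerase I gene, at -0.52, and on Cenpe, a kinetochore motor gene, at -0.38. The 8 members with the most blocks all had negative changes.

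**Figure D1:**
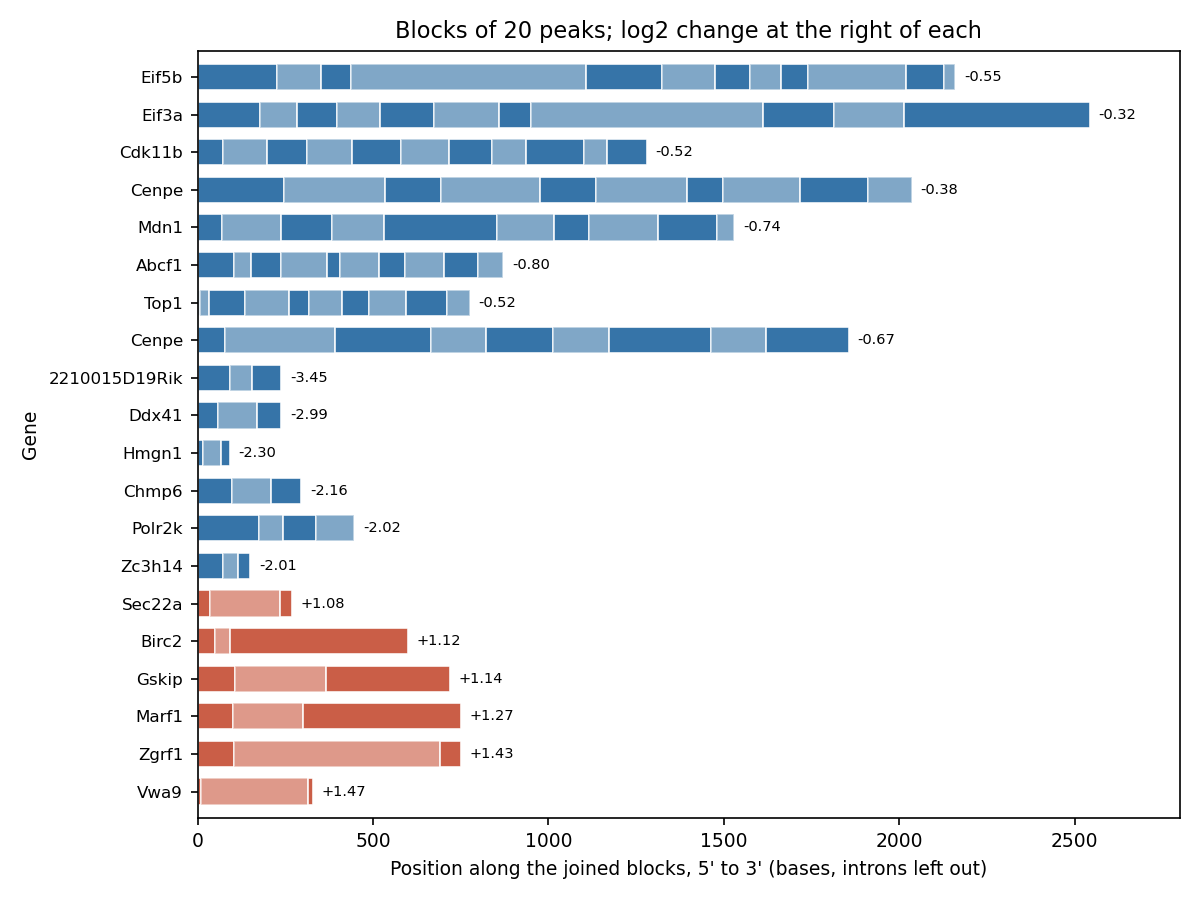
Blocks of 20 members laid end to end from 5′ to 3′ without introns (horizontal axis in bases; shades alternate between neighbouring blocks, blue for negative and red for positive change), with the log2 change at the right. The 8 rows at the top are the members with the most blocks, followed by the 6 most negative and the 6 most positive changes; the most negative members are short, Polr2k being the longest at 447 bases, and the positive ones include blocks of up to 587 bases in Zgrf1.

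The share of negative changes differed with the number of blocks. Among peaks of 1 block 422 of 1069 were negative (39.5%), and among those of 2 blocks 267 of 512 (52.1%). Just inside the limit, 194 of the 264 peaks of 3 blocks were negative (73.5%), with a median change of -0.59 against -0.27 just outside it, at 2 blocks. With 4 blocks the share was 85.5%, with 5 blocks 96.8% and with 6 or more 90.9%. The 7 positive-change members of 5 or more blocks, named after their values were seen, were on Ccdc186, Zfp644, Col6a5, Trim68, Ccdc181, Trp53bp1 and Mios. Each of these had a block of at least 464 bases. Over all members the median change was -0.62, with a range of -3.45 to 1.47, and the negative-change and positive-change members had median changes of -0.69 and 0.60.

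**Figure D2:**
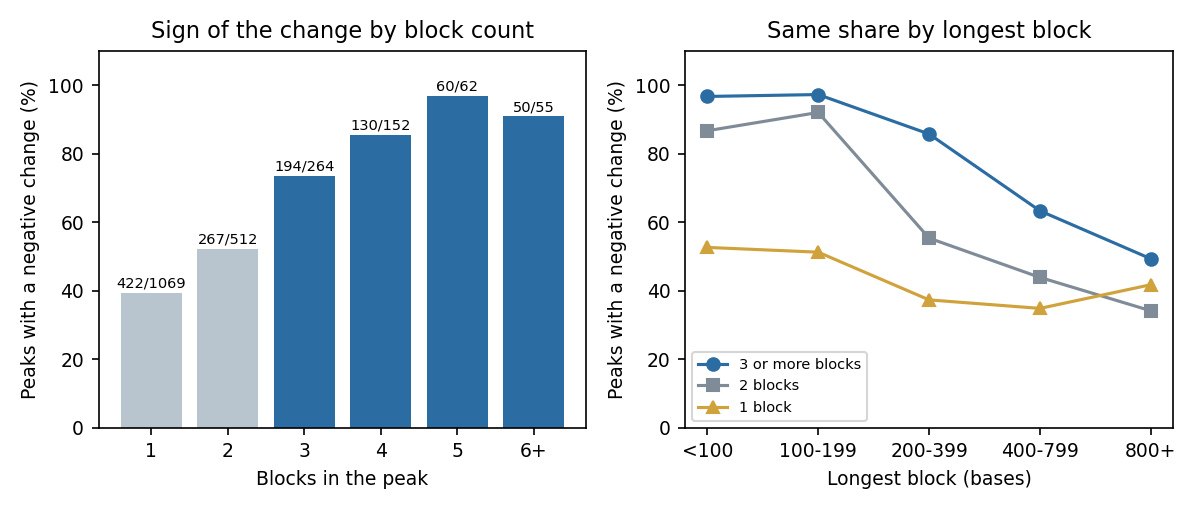
Left, percent of listed peaks with a negative change by number of blocks, with the counts above the bars (grey, 1 and 2 blocks; blue, members). Right, the same percent by length of the longest block for peaks of 3 or more, 2 and 1 blocks; in the members it is 97.2% from 100 to under 200 bases and 49.3% at 800 bases or more.

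The share also differed with the length of the longest block. Of the 246 members in which every block was under 200 bases, 239 had a negative change (97.2%), with a median enrichment of 2.55 and a median change of -0.79. The share was 85.7% of 105 members with a longest block from 200 to under 400 bases and 63.3% of 109 from 400 to under 800. With a block of 800 bases or more it was 49.3% of 73, at a median enrichment of 20. The share in the whole list was 53.1%.

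Peaks with fewer blocks but the same longest block were placed beside them. From 100 to under 200 bases, 92.0% of 75 peaks of 2 blocks and 51.2% of 121 peaks of 1 block were negative, against 97.2% of 216 members. From 200 to under 400 bases the shares were 55.3%, 37.3% and 85.7%, and at 800 or more 34.1%, 41.7% and 49.3%, each in the order 2 blocks, 1 block, members. Peaks are not replicates, so no test was run on these shares. Joined length differed between the classes even at the same longest block: from 200 to under 400 bases the medians were 360, 299 and 509 bases.

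Enrichment moved with sign and with block length. Negative-change members had a median enrichment of 3.66 (quartiles 2.18 and 7.36) and positive-change members 16.9 (9.42 and 27.4). Below an enrichment of 2, 90 of 91 members were negative, and at 20 or above 33 of 75 were. Input counts moved with sign as well: the genes of negative-change members had a median mean normalised count of 3488 and those of positive-change members 1470. The mean count reflects the reads on a whole gene and is not divided by transcript length. The part of enrichment, block length and read number in the sign was not tested.

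**Figure D3:**
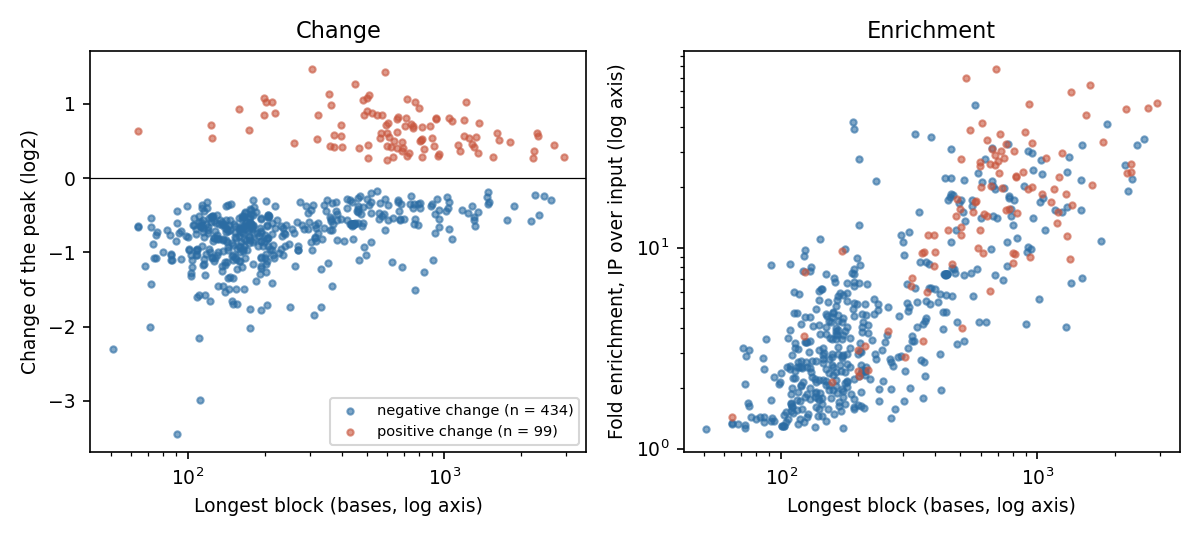
Each point is a member, by its longest block (horizontal, bases, log axis) against its log2 change (left) and its fold enrichment of IP over input (right, log axis), blue for the 434 negative and red for the 99 positive changes. Negative changes are dense where the longest block is under 200 bases, at low enrichment, and the positive ones lie mostly at 400 bases and above.

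The place of the longest exon stretch differed with the sign. The longest block was the first in 138 members, an inner one in 246 and the last in 149. Negative-change members made up 123, 209 and 102 of these. In positive-change members the last block had a median of 320 bases, against 72 in negative-change members, and 46 of 99 had a last block of 400 bases or more. Inner blocks of 400 bases or more were 28.5% of 144 in positive-change and 4.71% of 891 in negative-change members.

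The highest enrichments were found on members with long exon stretches. Ccdc186 reached 77.3 with 8 blocks, Mpp5, a cell polarity gene, 69.6, and Zfp472, a zinc finger gene, 64.2 with a last block of 1604 bases. Trps1, a GATA-type transcription factor gene, Vcpip1, a deubiquitinase gene, and C1galt1, a glycosyltransferase gene, followed at 59.4, 52.2 and 51.7. Their changes were positive, between 0.28 for Vcpip1 and 0.87 for Mpp5. The exception among the 8 most enriched members was Ppp1r9b, which encodes spinophilin, at an enrichment of 51.1 and a change of -0.51. The longest joined lengths were those of Zfp644, at 4103 bases, Vcpip1, at 4050, and Col6a5, a collagen gene, at 3299.

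The most negative change was on 2210015D19Rik (chr11:5762150-5768969), at -3.45 with blocks of 91, 63 and 84 bases and an enrichment of 8.20. Its RefSeq symbol, Ube2d-ps, marks a pseudogene, so its reads may be shared with related genes and the value is uncertain. Ddx41, a DEAD-box RNA helicase gene (chr13:55535977-55536539), followed at -2.99, with 3 blocks inside 563 bases of the genome and an enrichment of 2.24. Hmgn1, a nucleosome-binding protein gene, had the shortest member, 91 joined bases, at -2.30 and an enrichment of 1.25, and processed copies of this gene may share its reads. Chmp6, an ESCRT-III gene, Polr2k, the gene of a shared RNA polymerase subunit, and Zc3h14, a poly(A)-binding protein gene, had changes of -2.16, -2.02 and -2.01. Ybx1, a cold-shock RNA-binding protein gene, Hnrnpm, Ccdc124 and the nuclear import gene Kpna4 completed the 10, between -1.85 and -1.73. The smallest deposited log10 false discovery rate, -434, was shared by 4 members named for it after the values were seen: Ngfrap1, Nudc, Pdap1 and Bex2.

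The most positive change was on Vwa9, which RefSeq names Ints14, an Integrator subunit gene (chr9:64961249-64964339), at 1.47 with blocks of 9, 305 and 14 bases and an enrichment of 2.87. Zgrf1, a DNA helicase gene (chr3:127581467-127584716), had 1.43 and an inner block of 587 bases. Marf1, Gskip and Birc2, an inhibitor of apoptosis gene, had changes of 1.27, 1.14 and 1.12, each with its longest block last, of 449, 354 and 508 bases. Sec22a, a vesicle transport gene, Vegfc, a lymphatic growth factor gene, Prmt10 and Tefm, a mitochondrial transcription elongation factor gene, followed, between 1.05 and 1.08. Positive changes without a block of 200 bases were found on 7 genes, named after their values were seen: Sec22a, Mt3, Bcat2, Ufl1, Tada3, Exosc8 and Scfd1.

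Position on the gene was taken from RefSeq. All but 1 member (H2-L) matched a RefSeq gene, and a start was found for 431. Of these, 150 began within 50 bases of a start of their gene (34.8%), 102 of them exactly at it. A further 69 began 51 to 200 bases after it. Among peaks of 2 blocks 64 of 404 began within 50 bases of a start (15.8%), and among those of 1 block 48 of 854 (5.62%).

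Members that began at a start were negative in 138 of 150 cases (92.0%), and those placed elsewhere in 204 of 281 (72.6%). The 102 members with no start matched, whose position is unknown, were negative in 92 cases (90.2%). Within classes of block length, with a longest block of 400 bases or more, 20 of 29 members at a start and 50 of 109 elsewhere were negative. With every block under 200 bases the counts were 85 of 86 and 113 of 119. Listed peaks of fewer blocks at a start were also mostly negative, 56 of 64 with 2 blocks and 46 of 48 with 1. Of all negative-change members with a known start 40.4% began there, against 13.5% of the positive-change ones.

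**Figure D4:**
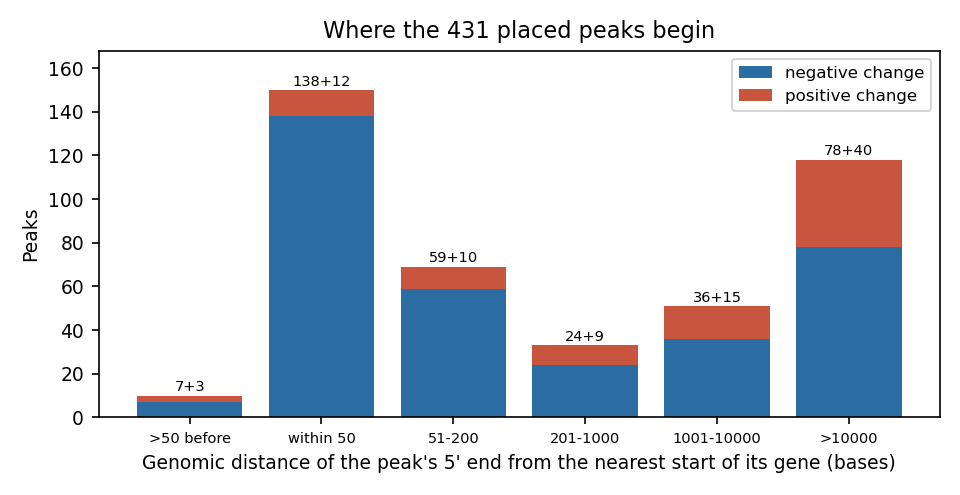
Number of members by genomic distance, introns included, from the nearest RefSeq start of their gene to the 5′ end of the peak (bases; 431 members), with negative and positive changes stacked and their counts above each bar. The class within 50 bases holds 138 negative and 12 positive members, and the class beyond 10000 bases holds 78 and 40.

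At the other end, 24 members stopped within 50 bases of the RefSeq gene end, and 13 reached from start to end, so that the peak took in both ends of the gene. Among these 13, of which 5 are named after their values were seen, were Nupr1, a stress-induced chromatin protein gene, with 3 blocks and a change of -0.82, and Rrp15, a ribosomal RNA processing gene, with 5 blocks and -0.42. Atp5k, a small subunit gene of ATP synthase, had 4 blocks of 292 joined bases, an enrichment of 2.15 and -0.38. Zfp637 and 1700020I14Rik were the positive-change cases, at 0.79 and 0.37, with last blocks of 932 and 1157 bases.

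Some members share bases or a gene and are not separate observations. The protocadherin alpha cluster contributed 14 members, 12 named Pcdha1 to Pcdha12 plus Pcdhac1 and Pcdhac2. In this cluster variable first exons are spliced to shared constant exons, and each pair of its members had 581 to 592 bases in common. Their changes lay between -0.62 and -0.24 and their enrichments between 7.34 and 41.0. Input counts were low for several of these genes, with means of 11.2 for Pcdha11, 19.9 for Pcdha12 and 22.3 for Pcdha5. Pcdha8 had a mean of 204, and Pcdha4, Pcdha6 and Pcdha7 had no input value. The enrichments in this cluster are read with that limit. Cbx6 with Npcd, and Lbhd1 with 1810009A15Rik, shared 300 and 572 bases. With the cluster counted as a single peak, 81.0% of 520 members were negative.

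A further 9 genes carried 2 or 3 members each, 20 in all, and every one of the 20 had a negative change. Cenpe held 3, with 7, 9 and 10 blocks and changes of -1.09, -0.67 and -0.38 from 5′ to 3′. Myh3, a myosin heavy chain gene, also held 3, at -0.75, -0.56 and -1.17. Each of the other 7 genes held 2, among them Hnrnpm at -1.78 and -0.96, Fmnl2, an actin regulator gene, at -1.22 and -0.64, Golim4, a Golgi protein gene, at -0.75 and -0.44, and Smc1a at -0.74 and -0.56. Another listed peak of 1 or 2 blocks was present on 58 member genes, and in 52 of the 64 pairs so formed the signs were equal.

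The members were grouped by function with lists drawn up for genes of RNA metabolism and other processes. Splicing factor and hnRNP genes carried 14 members on 13 genes. All 14 had negative changes, between -1.78 and -0.32, where 81.4% of all members were negative. Hnrnpm held the lowest of them and a second at -0.96, and Hnrnpul1 and Hnrnpul2, related RNA-binding protein genes, had -1.18 and -0.96. Their enrichments were low, between 1.60 and 7.82. Of all members, 98.9% below an enrichment of 2, 94.4% from 2 to under 5 and 82.5% from 5 to under 10 were negative. RNA helicase genes held 6 members, all negative, from Ddx41 at -2.99 to Ddx46 at -0.61.

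Members on translation genes were negative as well, as most members were. The 7 members on translation factor genes were negative, with Eif2b2, a subunit gene of the exchange factor eIF2B, at -1.41, the release factor gene Etf1 at -0.97, the elongation factor gene Eef1d at -0.83 and Eif2s2 at -0.69. The 6 on aminoacyl-tRNA synthetase genes were negative too, with Dars, Tars, Sars and Nars, which charge the tRNAs of aspartate, threonine, serine and asparagine, between -0.80 and -0.69. In the list for the small ribosomal subunit and its RNA, whose maturation involves EMG1, Rrp9, Tsr1 and Nop58 had members at -1.57, -1.25 and -0.63. These counts are read against the 81.4% of all members that were negative, and against the higher shares at low enrichment given above. Enrichments were 2.12 to 21.4 on the translation factor genes and 1.32 to 5.96 on the synthetase genes. The smallest changes in these 2 lists were -0.32 on Eif3a and -0.30 on Kars.

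The positive-change members on listed genes were scattered over other lists, whose counts are likewise read against the 81.4% of all members that were negative. Chromatin regulator genes held 10 members, of which Kdm2a, a histone demethylase gene, at 0.72 and Kmt2c, a histone methyltransferase gene, at 0.70 were positive; Smc3 and Smc1a, of the cohesin ring, had -0.90 and -0.74. In the mitosis and kinesin list 11 of 12 were negative, with the chromosomal passenger gene Incenp at -1.01, and Espl1, the separase gene, was positive at 0.42. E2f3, a cell cycle transcription factor gene, Usp38, a deubiquitinase gene, and Tsc1, an mTOR inhibitor gene, had 0.77, 0.74 and 0.52. The other 3 members in the replication and G1/S list were negative, led by Lig1, a DNA ligase gene, at -1.07. In the deubiquitinase and proteasome list 7 of 8 were negative, with Psmd2 at -1.07 and Psmc1 at -0.85. Genes of the cytoskeleton and adhesion list held 4 members, all negative, with Myh10 at -0.97, Sptan1 and Mapt at -0.91 each and Dst at -0.68. Kpna4 and Tpr, of nuclear transport, had -1.73 and -0.73, and the endoplasmic reticulum chaperone gene Hsp90b1 had -1.03. The secretory granule genes Chga and Chgb, markers of the neuroendocrine lineage, carried members at -0.65 and -0.56.

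The input RNA of member genes was measured by a separate test, the authors' DESeq2 comparison, which the block count did not use. In the authors' deposited table Emg1 fell by 1.73 ± 0.11 (log2, SE), to 30.2% of control, and for that reason a negative fold change is taken to mean lower in the knockdown; no listed peak lay on Emg1. Of the 15 neuroblastoma and sympathoadrenal markers 14 were in that table with a mean count of at least 100. Of these 14, 10 rose and 1 fell by the authors' adjusted p under 0.05, where 17.1% of all tested genes rose and 15.5% fell. Of 18 fibroblast, leukocyte and glial markers 3 reached that mean: Pdgfrb fell by 0.98 ± 0.19 and Cd74 by 0.74 ± 0.12, and Mbp had -0.25 ± 0.13 (adjusted p 0.124), in the authors' deposited table. The part of such cells in the input changes was not tested. In bulk RNA, a change per cell and a change in the mix of cells cannot be told apart.

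By the authors' adjusted p under 0.05, 32.6% of 12807 genes changed in input, 17.1% rising and 15.5% falling. Of the 415 tested genes with negative-change members 170 rose (41.0%) and 44 fell (10.6%), with a median log2 fold change of 0.13 against 0.00 over all genes. Of the 99 genes with positive-change members 11 rose (11.1%) and 19 fell (19.2%), with a median of -0.06. These shares were read beside the background and not tested against it. Among genes with a mean count of at least 100, 19.4% of 11134 rose and 17.1% fell. Of the 410 such genes with negative-change members 41.5% rose and 10.7% fell. The part of read number in these calls was not tested further. Peaks of fewer blocks gave like shares: 41.3% of genes with negative-change peaks of 1 block and 41.0% of those with 2 rose. No source used here says whether input reads enter the change of a peak, and their part in this was not tested.

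Within the negative-change members the share of rising genes was highest where the longest block was long. It was 55.6% of 99 genes (3 fell) with a block of 400 bases or more, 42.4% of 85 from 200 to under 400, and 34.7% of 236 with shorter blocks only, where 32 fell. Negative-change members that began at a start lay on genes of which 27.5% of 138 rose and 13.8% fell; for those placed elsewhere these were 50.3% and 7.69% of 195. Most changes were small: with an absolute log2 fold change of at least 0.5 required, 20 genes with negative-change members rose (4.82%) and 10 fell (2.41%), where 3.79% and 5.75% of all genes did.

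**Figure D5:**
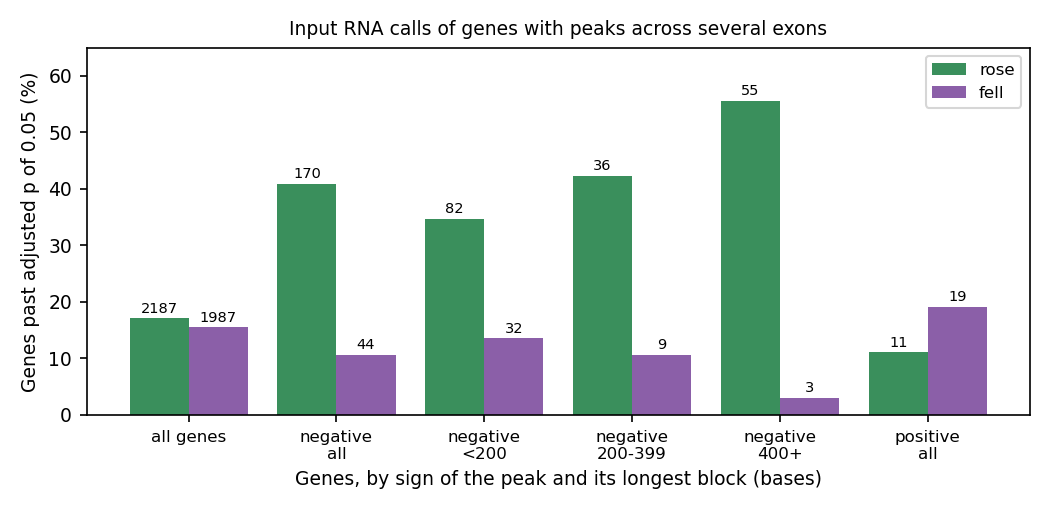
Percent of genes that rose or fell in input RNA at an authors' adjusted p under 0.05, for all 12807 tested genes, for genes with negative-change members in all and by longest block, and for genes with positive-change members; numbers above the bars are gene counts. Rising genes make up 41.0% of the negative-change group and 11.1% of the positive-change group, against 17.1% of all genes.

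The largest rises among genes with negative-change members were those of Tnrc18, at 0.95 ± 0.10 with a peak change of -1.51, and Sv2c, a synaptic vesicle protein gene, at 0.78 ± 0.07 (log2, SE) with -0.36, in the authors' deposited table. Scaf1, Slc36a1, a lysosomal amino acid transporter gene, and Smarcc2, a BAF chromatin remodelling subunit gene, rose by 0.74 ± 0.09, 0.72 ± 0.06 and 0.64 ± 0.06 in the authors' deposited table. Falls in this group were steeper and fewer. Polr2k fell by 1.42 ± 0.29, Narf by 1.21 ± 0.12 and Clu, which encodes the chaperone clusterin, by 1.08 ± 0.19 in the authors' deposited table. Fbxo25 and Ttc1 fell by 0.84 ± 0.10 and 0.71 ± 0.10 in the authors' deposited table.

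Among genes with positive-change members, Mt3, a metallothionein gene, fell by 1.30 ± 0.30 and Uap1, of the UDP-N-acetylglucosamine pathway, by 1.10 ± 0.10 in the authors' deposited table. Their peak changes were 0.93 and 0.85. Chac2, Dnajb4, a chaperone gene, and Ankrd40 fell by 0.79 ± 0.17, 0.76 ± 0.13 and 0.65 ± 0.07 in the authors' deposited table. The rises in this group were smaller, the largest being Zgrf1 at 0.42 ± 0.09, Dgki, a lipid kinase gene, at 0.40 ± 0.09 and Setdb1, a histone methyltransferase gene, at 0.39 ± 0.07 in the authors' deposited table. E2f3 and Espl1 rose by 0.32 ± 0.08 and 0.30 ± 0.06 in the authors' deposited table.

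Genes of the machinery around exon junctions and m6A were followed in input. Of 18 genes of the exon junction complex and of the mRNA surveillance pathway that reads it, 8 rose and 0 fell by the authors' adjusted p, with a median of 0.19, where 17.1% of all tested genes rose and 15.5% fell. Upf1, the helicase of nonsense-mediated decay, rose by 0.53 ± 0.07, Pnn by 0.43 ± 0.07 and Casc3, a core subunit gene, by 0.35 ± 0.07, values from the authors' deposited table. Of the other core genes, picked after their values were seen, Eif4a3 had 0.10 ± 0.06 (adjusted p 0.218), Magoh 0.09 ± 0.09 (0.44) and Rbm8a 0.11 ± 0.06 (0.183), as the authors' deposited table gives them. Rbm8a and Acin1 themselves carried members, of 5 and 3 blocks, with changes of -0.84 and -0.70.

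Beside the same 17.1% and 15.5%, 6 of 9 m6A writer genes rose and 0 fell. The smallest adjusted p among them were those of Zc3h13, at 0.52 ± 0.09, and Mettl16, at 0.38 ± 0.10, from the authors' deposited table. The writer genes that did not pass are named after their values were seen. In the authors' deposited table Mettl3 had 0.32 ± 0.13 (adjusted p 0.0535), Wtap -0.003 ± 0.073 (0.979) and 1110037F02Rik 0.19 ± 0.10 (0.115). The 13 genes of m6A readers gave 9 rises and 1 fall, with Prrc2a at 0.65 ± 0.05, Prrc2b at 0.61 ± 0.05, Fmr1 at 0.94 ± 0.10 and Prrc2c at 0.49 ± 0.06 in the authors' deposited table. The fall, named after its value was seen, was that of Hnrnpc, by 0.17 ± 0.05 in the authors' deposited table. Such shares of rising genes were not particular to the junction and m6A lists. Among genes of other lists, 64.3% of 42 (replication and G1/S), 60.3% of 63 (mitosis and kinesins) and 59.8% of 82 (chromatin regulators) rose. The share was 4% of 25 for cholesterol synthesis and 6.58% of 76 for cytosolic ribosomal proteins, against 17.1% of all tested genes. The demethylase genes Fto and Alkbh5 had -0.05 ± 0.07 and -0.04 ± 0.06, and the authors' deposited table puts their adjusted p at 0.633 and 0.645. Across the writer, demethylase and reader lists a single member was found, on the reader gene Hnrnpa2b1 (chr6:51463446-51464526), with 3 blocks, an enrichment of 1.35 and a change of -0.53. Of all 12807 tested genes 514 carried a member, so a count this low in short lists is no result about them.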

How the data were processed

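The tools named in the submitters' processing notes are HISAT2, Trimmomatic and DESeq2, and the build is mm10. Versions, read counter, annotation, peak caller and pooling of replicates: not given in the sources used here. The authors deposited a DESeq2 table of 16279 genes: a signal (mean normalized count, per the file headers), a log2 fold change with its SE, a Wald score, a p-value and an adjusted p. The deposited peak list holds a fold enrichment ratio of IP over input, a log2 change, a p-value per peak, and p and false discovery rate as log10, used here as a score (largest rate among members, 0.0132). Depth per library is unknown and no count model was refitted.

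Blocks were ordered by strand. Peaks were matched to RefSeq genes of GRCm38.p6 by symbol or synonym on the same chromosome, and starts came from RefSeq start windows. Blocks, lengths and distances were tested on simulated peaks. Starts are annotated positions and may not be those used in these cells.

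Members, lists and tests were chosen with earlier results of these data known. The peaks named were the 8 with the most blocks, for each sign the 10 of largest change (1 per gene), the 8 most enriched, the 3 longest, members on the exon junction and m6A lists, up to 4 per other list, and up to 6 genes with several. Named input genes were the 5 steepest rises and falls per sign with a mean of at least 100, up to 4 per machinery list, and Emg1. Input genes of lists were matched through 8 older symbols. Alternatives to the block minimum, the p threshold, the enrichment and the window at a start are in the closing section. Software was pandas 2.3.3 and numpy 2.4.6 under Python 3.11.15, with figures from matplotlib 3.10.9. Some genes that the naming rule selects are not reported here.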

Additional observations from a re-analysis of the deposited data

How the results depend on the processing

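The negative share of 81.4% was 89.2% of 269 peaks with at least 4 blocks, 77.8% with a fold enrichment of at least 2, and 93.7% of the 351 peaks whose longest block was under 400 bases, the last chosen after seeing the data. It was between 81.0% and 82.7% with 1 peak per gene, a false discovery rate under 0.01, blocks under 10 bases not counted, or, added later, the protocadherin cluster as 1. With at least 4 blocks the median joined length was 545 bases. A window of 200 bases placed 51.5% of members at a start. In input at an adjusted p under 0.01, 131 genes with negative-change members rose (31.6%) and 28 fell (6.75%), against 12.3% and 11.0% of all genes. With an absolute log2 fold change of at least 0.5, 20 rose (4.82%) and 10 fell (2.41%), against 3.79% and 5.75% of all genes. With at least 4 blocks 90 rose and 23 fell, where 17.1% and 15.5% of all genes did. Of the 99 genes with positive-change members 6 rose and 15 fell at 0.01, and 0 rose and 7 fell at 0.5. With at least 4 blocks 3 rose and 3 fell. These counts are read beside the same shares of all genes. Of the 58 alternative values computed, 38 stayed within a limit set around the main value and 20 moved beyond it. Only those of the median change carry a sign that could reverse, and it stayed negative in each. The median change of -0.62 became -0.56 with a fold enrichment of at least 2 and -0.74 with a longest block under 400 bases. No paired analysis was possible because the tables hold no values per library; leaving out replicates could not be run for the same reason.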
